A study of Mus musculus with 12 samples.

Results

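The postsynaptic density of an excitatory synapse is built around 3 families of scaffold proteins, and the transcripts of 10 of their genes were examined here on the ribosomes of hippocampal CA1 pyramidal neurons with and without Fmr1. The genes are Dlgap1, Dlgap2, Dlgap3 and Dlgap4, then Shank1, Shank2 and Shank3, and Dlg2, Dlg3 and Dlg4. They were taken by their symbols from a table of 24079 genes, of which 17823 had enough reads to be tested, and all 10 were among those tested. Libraries of 6 wild-type and 6 Fmr1-/y pools were sequenced to ask which mRNAs are differently loaded on ribosomes when the RNA-binding protein FMRP, the product of Fmr1, is absent.

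The mice of both groups carried a Wfs1-CreERT2 transgene and the RiboTag allele of Rpl22, which encodes a ribosomal protein of the large subunit. Tamoxifen, given at 100 mg/kg on 3 days, lets Cre switch Rpl22 to a form with an HA tag in cells where the Wfs1 promoter is active, and hippocampi were taken 1 week later. The Fmr1-/y animals in addition lacked Fmr1, and the wild-type animals were their littermates. Each library came from ribosomes pulled down through HA from the pooled hippocampi of 4 to 6 mice aged 2 to 6 months, so that n counts pools and not animals. The Wfs1 promoter limits the result to neurons that use it, and the pulldown started from whole hippocampus. The counts hold ribosome-bound RNA alone, so the amount of an mRNA and its loading with ribosomes cannot be told apart, nor can fewer tagged cells and less RNA per cell.

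Scaffold proteins form stacked layers beneath the postsynaptic membrane. The Dlg proteins, members of the MAGUK family, lie closest to it and hold glutamate receptors and adhesion proteins by their PDZ domains. The Dlgap proteins, also called SAPAP or GKAP, bind the guanylate kinase domain of the Dlg proteins on one side and the PDZ domain of the Shank proteins on the other, and the Shank proteins link this assembly to Homer and to the actin of the spine. In pyramidal neurons of the hippocampus these layers sit in dendritic spines, and mRNAs of several of these scaffolds are known binding partners of FMRP.

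The last codons of the 4 Dlgap genes are shown because they encode the end of the protein that reaches into the Shank PDZ domain, which is the contact that joins the families. Each line gives the last 30 bases of the coding sequence on the plus strand of GRCm38 (GENCODE M21 transcripts), with the 4 codons before the stop codon in capitals.

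Dlgap1, chr17:70818205-70818234: tacatccccgaggcgCAGACCCGGCTCtga
Dlgap2, chr8:14846679-14846708: tacatccctgaggccCAGACGCGGCTCtga
Dlgap3, chr4:127236339-127236368: tacatccccgaggccCAGACCAGGCTGtga
Dlgap4, chr2:156762874-156762903: tatgtccccgaggccCAGACCAGGCTCtaa

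All 4 ends of 12 bases differ from one another, by 1 to 3 bases per pair, and all encode the same 4 amino acids. The end that meets Shank is the same in the 4 proteins.

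The labels were checked first. Fmr1 had 1971 to 2608 reads in the wild-type libraries, 1 read in Fmr1-/y replicate 2 and 0 reads in the other 5 knockout libraries. Reads counted on genes numbered 39400980 to 55745464 per library in the wild-type group and 43106629 to 65565479 in the knockout group. The 7 markers of CA1 pyramidal neurons summed to 8128 to 10100 CPM (counts brought to a common library size with edgeR's TMM factors) in the wild-type and 7898 to 9351 CPM in the Fmr1-/y group, which fits the CA1 label. Markers of other cells were present at lower sums, with 5 astrocyte markers at 698 to 846 CPM (wild-type) and 762.5 to 1188 CPM (Fmr1-/y), and 5 oligodendrocyte markers at 1032 to 1524 and 936 to 1405 CPM. The sums were 112 to 235 and 121 to 176 CPM for 7 markers of GABAergic neurons, 177 to 230.4 and 159 to 208 CPM for 4 markers of CA2 and CA3, 59.1 to 82.3 and 47.5 to 68.1 CPM for 3 markers of dentate granule cells, 55.4 to 67.0 and 57.0 to 74.8 CPM for 4 microglial markers, and 19.0 to 29.6 and 24.1 to 38.7 CPM for 3 endothelial markers. None of these markers passed the adjusted threshold of 0.05 in edgeR, although all 5 astrocyte and all 3 endothelial markers were on the higher side in Fmr1-/y libraries, 2 of each list with an unadjusted p under 0.05. All 7 CA1 markers were on the lower side, with Wfs1, whose promoter drives Cre, the 1 of them with an unadjusted p under 0.05 (log2 fold change -0.27, adjusted p = 0.410).

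In wild-type CA1 neurons the 10 scaffold mRNAs spanned a wide range of ribosome-bound levels. When the reads were divided by the length of each gene's exons, Dlgap1 stood at 82.5 ± 5.33 CPM per kb (SD, n = 6), Dlg4 at 78.2 ± 5.97 and Dlg3 at 69.1 ± 5.65. A middle group was formed by Dlgap3 at 49.3 ± 1.84, Dlg2 at 42.8 ± 5.53, Dlgap4 at 40.5 ± 2.70, Shank1 at 35.3 ± 3.94 and Shank3 at 28.7 ± 2.13 CPM per kb. Dlgap2 at 9.39 ± 0.854 and Shank2 at 6.64 ± 0.651 CPM per kb were the lowest. Neighbours in this order overlapped in their wild-type libraries except at 3 steps, from Dlg3 to Dlgap3, from Shank3 to Dlgap2 and from Dlgap2 to Shank2. The lowest gene of each family, Dlgap2, Shank2 or Dlg2, did not overlap with the others of its family in the wild-type libraries.

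The order at the top depended on the length used. With the length of the transcript that has the longest coding sequence, a choice made after the values were seen, Dlg4 stood first at 275 CPM per kb and Dlgap1 second at 164, and the other 8 genes kept their order. In Fmr1-/y libraries Dlgap3 stood at 38.8 ± 4.06 CPM per kb, after Dlg2 at 39.5 ± 6.14 and just before Dlgap4 at 37.9 ± 2.51, so that it changed places with Dlg2. In the Fmr1-/y libraries these 3 genes overlapped, whereas in the wild-type libraries Dlgap3 overlapped with Dlg2 and lay above Dlgap4. The other 8 genes held their places.

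All 10 scaffold mRNAs had a lower mean in Fmr1-/y than in wild-type libraries, by small amounts. The log2 fold changes (Fmr1-/y over wild-type) ran from -0.35 for Dlgap3 to -0.01 for Dlg3 with a median of -0.14, where the median of all 17823 genes was 0.0042. Dlgap3, the 3 Shank genes and Dlg4 had an unadjusted p under 0.05, and no scaffold gene passed the threshold of 0.05 once p was adjusted over all genes tested (quasi-likelihood test of edgeR, Benjamini-Hochberg method).

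These counts stand against the following background. A log2 fold change below 0 was found for 48.6% of all genes tested and for 10 of the 10 scaffold genes. Among the 5131 genes expressed at or above the level of the lowest scaffold gene, 54.6% were below 0, with a median of -0.01. An unadjusted p under 0.05 on the lower side was found for 3.67% of all genes and for 5 scaffold genes, and on the higher side for 4.29% of all genes and for 0 scaffold genes. Of the 5131 genes, 302 were lower and 167 higher at that unadjusted p in edgeR, so lower calls outnumbered higher ones at this level. Only 0.0224% of all genes, 4 in number, passed the adjusted threshold in edgeR. DESeq2's Wald test on the same counts called 0.571% of the 14713 genes to which it gave an adjusted p, among them 1 scaffold gene, Dlgap3. The study, which used an earlier version of DESeq2, also called Dlgap3 lower in Fmr1-/y mice. The 10 genes were chosen with earlier results of these data known and are expressed in the same cells, so these counts describe the group and do not test it.

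**Figure D1:**
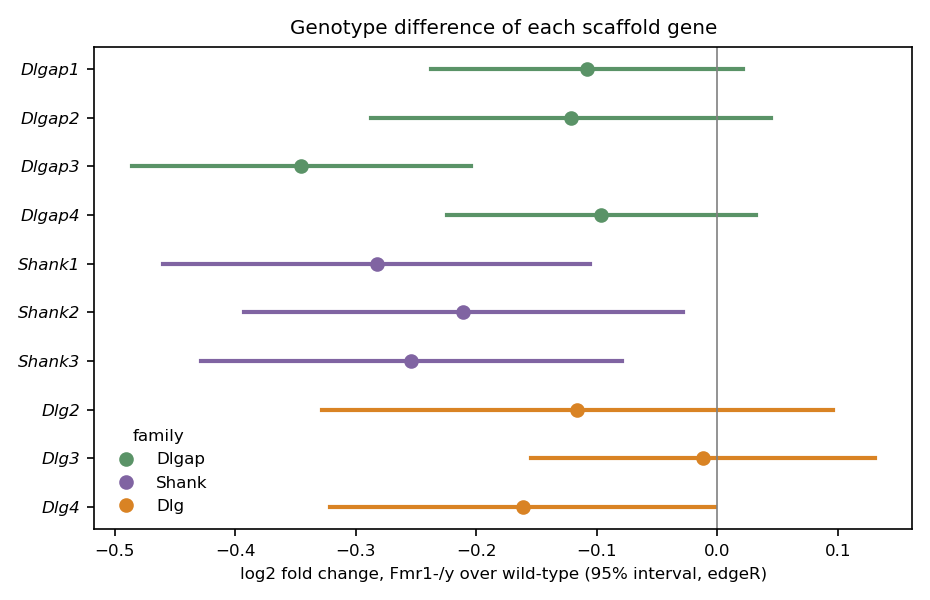
Log2 fold change of each scaffold gene (Fmr1-/y over wild-type, horizontal axis) from edgeR, with its 95% interval, coloured by family. All 10 points lie below 0, from -0.35 for Dlgap3 to -0.01 for Dlg3, and the intervals of Dlgap3, Shank1, Shank2, Shank3 and Dlg4 end below 0 without adjustment for the number of genes.

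The Dlgap family carried the largest single difference. Dlgap3, the family member whose loss in mice is known for compulsive grooming, lies on chromosome 4 from 127168305 to 127237022 (all coordinates are those of RefSeq on GRCm38). Its lowest, median and highest levels were 208, 212 and 226 CPM in the wild-type group and 143, 168 and 191 CPM in the Fmr1-/y group. All 6 Fmr1-/y libraries thus lay below all 6 wild-type libraries, which held on the lower side for 0.41% of all genes tested and for no other scaffold gene. The Fmr1-/y mean was 78.7% of the wild-type mean, with a log2 fold change of -0.35 (SE 0.07, 95% interval from -0.49 to -0.20). Dlgap3 was the ninth gene of the series in order of p, with an adjusted p of 0.147 by edgeR and of 0.00196 by DESeq2. The spread was larger among the Fmr1-/y pools (SD 17.7 CPM) than among the wild-type pools (SD 8.02 CPM).

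The fold change of Dlgap3 stayed between -0.38 and -0.30 when any 1 of the 12 libraries was left out, with edgeR adjusted p values from 0.0840 to 0.379. It was -0.31 (adjusted p = 0.270) with a score of astrocyte, oligodendrocyte, microglial and endothelial markers as a covariate. Fmr1-/y replicates 1 and 2 had the highest such scores of the 12 libraries, and without both of them, an alternative chosen after the data were seen, the fold change was -0.28 (adjusted p = 0.455).

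The other Dlgap genes differed less between the genotypes. Dlgap1, the most abundant family member on CA1 ribosomes (chromosome 17 from 69969073 to 70821413), had lowest, median and highest levels of 694, 763 and 845 CPM in the wild-type group and 637, 708 and 779 CPM in the Fmr1-/y group, and its mean was at 92.8% of wild-type. Dlgap4 (chromosome 2 from 156613633 to 156764363) went from 229 ± 15.3 to 214 ± 14.2 CPM (SD, n = 6 each), or 93.5% of wild-type. Dlgap2 (chromosome 8 from 14095776 to 14853426), the family member with the fewest reads, went from 42.4 ± 3.86 to 38.95 ± 3.64 CPM, or 91.9%. The libraries of the 2 genotypes overlapped for all 3 genes. Their 95% intervals of the log2 fold change reached from -0.24 to 0.02, from -0.22 to 0.03 and from -0.29 to 0.04, so that each interval holds both 0 and a difference of the size of Shank2 (-0.21). Their adjusted p values were 0.715, 0.760 and 0.773 in edgeR.

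The 3 Shank genes encode the layer below the Dlgap proteins, and all 3 had lower means in Fmr1-/y libraries by similar amounts. Shank1 (chromosome 7 from 44308916 to 44360094), which takes the larger part of the Shank reads and is known for enlarging spine heads, had lowest, median and highest levels of 287, 357 and 389 CPM in the wild-type group and 249.6, 284.5 and 321 CPM in the Fmr1-/y group. Every Fmr1-/y library lay below the wild-type median, and 3 lay below the lowest wild-type library. The mean reached 82.2% of the wild-type mean (log2 fold change -0.28, SE 0.08, edgeR unadjusted p = 0.0036, adjusted p = 0.342).

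Shank3 (chromosome 15 from 89493013 to 89560261), the gene lost in Phelan-McDermid syndrome, ranged over 195, 221 and 238 CPM in the wild-type group and 153, 188 and 216 CPM in the Fmr1-/y group, again the lowest, median and highest. As for Shank1, all 6 Fmr1-/y libraries lay under the wild-type median. Its mean reached 83.9% of the wild-type mean (log2 fold change -0.25, SE 0.08, edgeR adjusted p = 0.395). Shank2 (chromosome 7 from 143978077 to 144426043), the least abundant of the family in these neurons, went from 66.8 ± 6.55 to 57.7 ± 7.28 CPM, at 86.4% of wild-type (log2 fold change -0.21, SE 0.09, edgeR adjusted p = 0.539). In 5 of the 6 Fmr1-/y libraries Shank2 was below the wild-type median.

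The log2 fold changes of the Dlg family ran from -0.16 for Dlg4 to -0.01 for Dlg3. Dlg4 (chromosome 11 from 70017203 to 70045535) encodes PSD-95, the core MAGUK of mature synapses, and ranged over 848, 928 and 1068 CPM in the wild-type group and 713, 825 and 997 CPM in the Fmr1-/y group. In 4 of 6 Fmr1-/y libraries Dlg4 lay below the lowest wild-type library, while 1 Fmr1-/y library lay within the upper part of the wild-type range. Its mean reached 89.4% of the wild-type mean (log2 fold change -0.16, SE 0.08, edgeR unadjusted p = 0.0472, adjusted p = 0.621).

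Dlg3 (chromosome X from 100767411 to 100818410), the family member known for its abundance at young synapses, was at 365 ± 29.9 CPM in the wild-type group and 362 ± 29.3 CPM in the Fmr1-/y group, or 99.2% of wild-type (SD, n = 6 each). Its lowest, median and highest levels were 334, 362 and 411 CPM in the wild-type group and 323, 368 and 391 CPM in the Fmr1-/y group, so the groups covered nearly the same range. The 95% interval of its log2 fold change reached from -0.15 to 0.13, and the sign of the difference turned to 0.01 when counts were scaled by library totals alone. Dlg2 (chromosome 7 from 90476188 to 92449246), a close relative of Dlg4 that binds many of the same receptor tails, was at 380.5 ± 49.1 and 351 ± 54.6 CPM, with an interval from -0.33 to 0.10. Dlg2 had the widest interval of the 10 genes, and 1 Fmr1-/y library, at 441 CPM, was above the highest wild-type library, at 429 CPM.

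**Figure D2:**
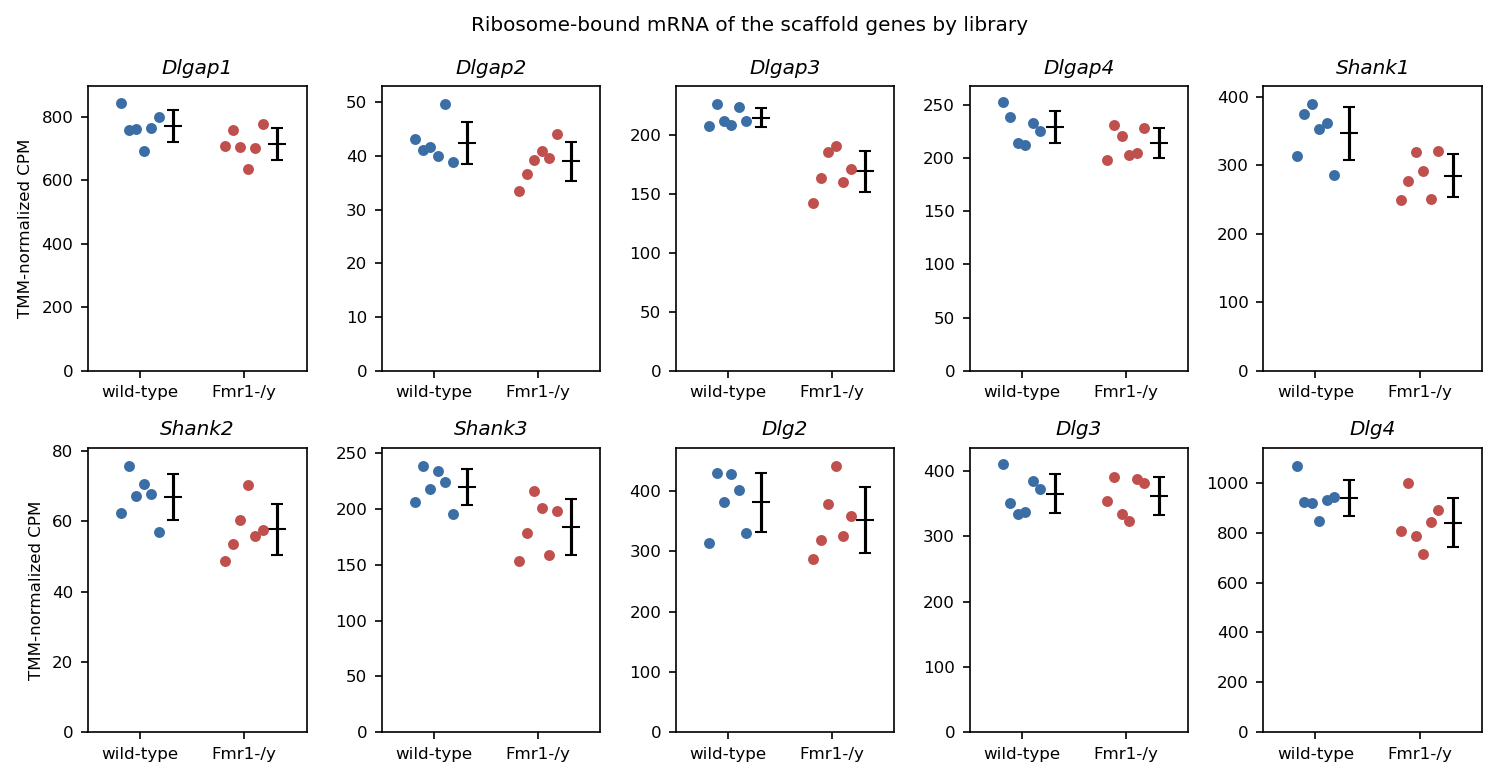
TMM-normalized CPM of each scaffold gene (vertical axis, from 0) in 6 wild-type and 6 Fmr1-/y libraries, one point per library in the order of replicate number, with the mean and SD beside them. For Dlgap3 the Fmr1-/y libraries (143 to 191 CPM) all lie below the wild-type libraries (208 to 226 CPM), while for the other 9 genes the groups overlap.

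Single pools had a visible part in these spreads. Fmr1-/y replicate 1 was the lowest library of its group for 7 of the 10 genes, namely Dlgap2, Dlgap3, Dlgap4, the 3 Shank genes and Dlg2, and Fmr1-/y replicate 4 was the lowest for the other 3. Wild-type replicate 6 was the lowest of its group for Dlgap2 and the 3 Shank genes. Without Fmr1-/y replicate 1, 3 scaffold genes in place of 5 had an unadjusted p under 0.05, and the same count was found without wild-type replicate 2. Without Fmr1-/y replicate 1 the fold change of Dlgap3 was -0.30, that of Shank3 -0.21, that of Shank2 -0.17 and that of Dlg2 -0.06.

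To ask whether members of 1 family differed from each other in their response, the ratio of their reads was taken within each library, which needs no scaling between libraries. Of 12 pairs within the families, 3 pairs with Dlgap3 and the pair of Dlg3 and Dlg4 had the largest differences between genotypes, and none passed an adjusted p of 0.05 in the two-sided exact permutation test over all assignments of 12 libraries to 6 and 6, whose smallest p is 0.00216.

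Dlgap3 took 17.1 ± 0.994% of the reads of the Dlgap family in wild-type and 14.9 ± 1.75% in Fmr1-/y libraries (SD, n = 6 each), while Dlgap1 took 61.3 and 62.8%, Dlgap4 18.2 and 18.8%, and Dlgap2 3.37 and 3.43%. The log2 ratio of Dlgap3 to Dlgap4 was -0.09 ± 0.10 in wild-type and -0.34 ± 0.15 in Fmr1-/y libraries, a difference of -0.25 (exact permutation p = 0.0152, adjusted p = 0.0606 over the 12 pairs). The ratio of Dlgap2 to Dlgap3 differed by 0.23 (exact p = 0.00866, adjusted p = 0.0519) and that of Dlgap1 to Dlgap3 by 0.24 (exact p = 0.0390, adjusted p = 0.117). In all 3 pairs the ratio was shifted against Dlgap3, and in all 3 the ranges of the 2 genotypes overlapped.

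In the Dlg family, the log2 ratio of Dlg3 to Dlg4 was -1.36 ± 0.06 in wild-type and -1.21 ± 0.08 in Fmr1-/y libraries (SD, n = 6 each), a difference of 0.15 (exact permutation p = 0.00866, adjusted p = 0.0519). Dlg3 took 21.7 and 23.3% of the Dlg reads, Dlg4 55.7 and 54.0% and Dlg2 22.7% in both genotypes. The 2 pairs with Dlg2 had differences of -0.11 against Dlg3 and 0.05 against Dlg4. Dlg2 had the widest scatter against its relatives, with log2 ratios to Dlg4 from -1.77 to -0.99 in wild-type libraries alone.

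The 3 Shank genes kept nearly the same proportions. Shank1 took 54.7 and 54.2% of the Shank reads, Shank3 34.7 and 34.9%, and Shank2 10.6 and 10.99%, in wild-type and Fmr1-/y libraries. Their 3 pairwise log2 ratios differed between genotypes by -0.07 to 0.05, with an adjusted p of 0.866 each in the exact permutation test. Without Fmr1-/y replicate 4, the library in which Dlgap3 was highest within its group, 4 of the 12 pairs passed, namely the 3 with Dlgap3 (differences of 0.31 for Dlgap1, 0.25 for Dlgap2 and -0.31 for Dlgap3 over Dlgap4, adjusted p = 0.0346 each in the exact test) and Dlg3 with Dlg4 (0.14, adjusted p = 0.0455). No pair passed when any other library was left out.

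**Figure D3:**
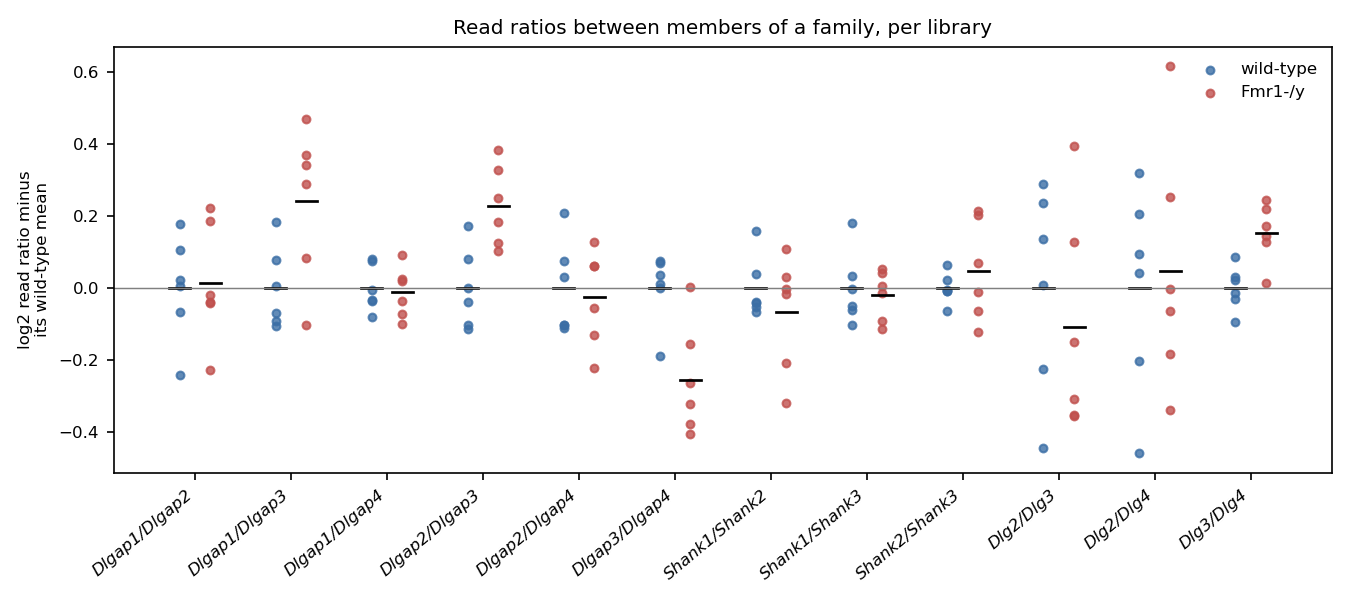
Log2 ratio of reads of 2 genes of a family in each library, minus the mean of that ratio in wild-type libraries (vertical axis), for all 12 pairs, with the group mean as a bar. The ratios with Dlgap3 lie away from 0 in Fmr1-/y libraries by 0.23 to 0.25 on the log2 scale and Dlg3 to Dlg4 by 0.15, and the groups overlap in every pair.

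The 10 genes did not vary as a single block among libraries of 1 genotype. After the mean of each genotype was removed, the log2 levels of Shank1, Shank2, Shank3, Dlg2 and Dlgap3 varied together over the 12 libraries, and so did those of Dlgap1, Dlgap4, Dlg3 and Dlg4, while the levels of these sets went opposite ways in most pairs. The sets were drawn after the correlations were seen. Dlgap2 sided with the first set at lower correlations.

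Within the first set, the 10 pairs had Pearson correlations from 0.61 to 0.94 with a median of 0.80, and within the second the 6 pairs had 0.64 to 0.89 with a median of 0.77. Between the sets the 20 pairs ran from -0.68 to 0.25, and 17 were below 0. Each pair was also taken without the 2 libraries farthest from the median of 1 of its genes. The first set then ran from 0.41 (Shank1 with Shank2) to 0.89. The second set then ran from 0.56 (Dlgap4 with Dlg3) to 0.80. The closest pair was Shank2 with Dlg2 (r = 0.94, Spearman's rho = 0.97, and r = 0.89 without the 2 libraries farthest from the median of the gene named first). Dlgap1 with Dlg4, the most abundant adaptor and the most abundant MAGUK, followed in the second set (r = 0.89, rho = 0.76, and 0.80 without the 2 farthest). Dlgap1 with Dlg2 was the most opposed pair (r = -0.68, rho = -0.72, and -0.41 without the 2 farthest). The grouping cut across families, since all 3 Shank genes fell in 1 set while Dlg2 parted from Dlg3 and Dlg4, and Dlgap3 from Dlgap1 and Dlgap4.

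These values describe 12 libraries that share their scaling, so that a gene measured against the same total is not independent of the others. Depth moved with some genes of each set. Over the same 12 libraries the correlation with the log of the total reads was -0.66 for Shank3, -0.61 for Dlg2 and -0.54 for Dlgap3 (rho = -0.69, -0.65 and -0.67), and 0.52 for Dlg3, 0.46 for Dlg4 and 0.37 for Dlgap1 (rho = 0.51, 0.57 and 0.37). Without the 2 libraries farthest in depth it was -0.59, -0.53 and -0.59 for the first 3 genes, and 0.09 for Dlg3, 0.36 for Dlg4 and 0.32 for Dlgap1. Dlgap4, of the second set, was at 0.04 (rho = 0.10, and -0.23 without the 2 farthest), and in the first set Shank1 was at -0.44 (rho = -0.29, and -0.10) and Shank2 at -0.38 (rho = -0.57, and -0.41). The non-neuronal marker score had its largest correlations with Dlgap2 (r = -0.71, rho = -0.63, and -0.53 without the 2 farthest in score) and Dlgap3 (r = -0.64, rho = -0.64, and -0.37), against -0.32 to 0.15 for the other 8 genes. Without the 2 farthest libraries the order changed, with 0.64 for Dlg4, 0.43 for Dlgap4 and 0.34 for Dlgap1, and -0.36 to 0.22 for the other 5. The part of depth and of other cell types in the shared variation was not tested.

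**Figure D4:**
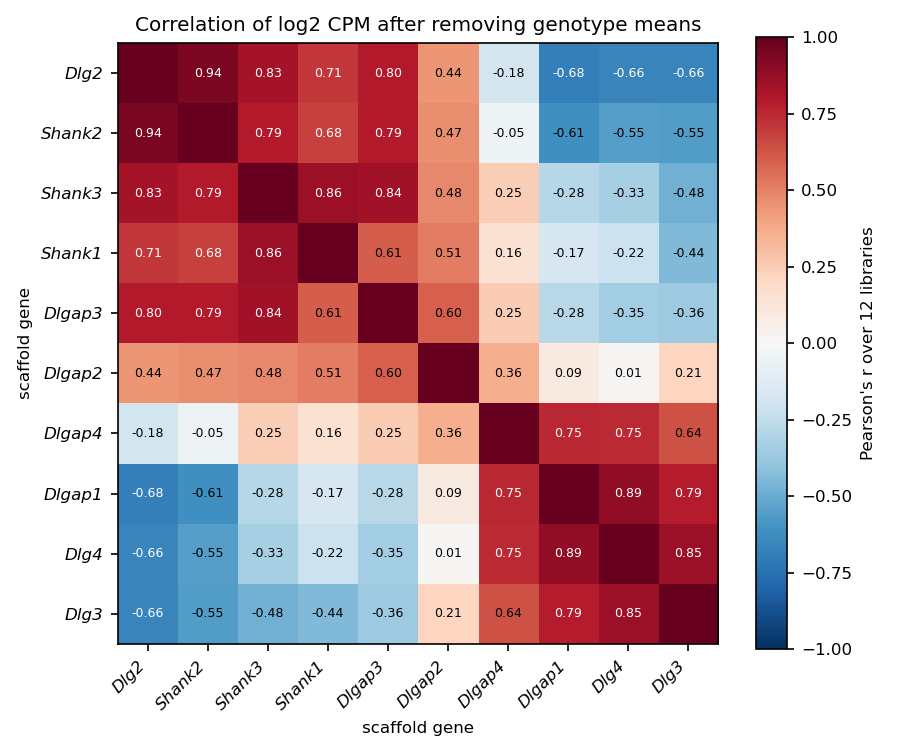
Pearson's r between the log2 CPM of each pair of scaffold genes (both axes list the 10 genes) over 12 libraries after the genotype means were removed, red for positive and blue for negative values. The block of Dlg2, the Shank genes and Dlgap3 at 0.61 to 0.94 and the block of Dlgap4, Dlgap1, Dlg4 and Dlg3 at 0.64 to 0.89 stand against each other at -0.68 to 0.25.

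For 1 gene of each family, that with the smallest p, the genes with the most similar course over the 12 libraries were sought among 5986 genes with a mean log2 CPM over 5, again with genotype means removed. Dlgap3 was closest to Adnp (r = 0.95), a chromatin protein, Zdhhc8 (0.95), a palmitoyltransferase, and Trim9 (0.93), a ubiquitin ligase. Shank1 was closest to the receptor phosphatase Ptprj (0.97), to Homer2 (0.97), whose protein binds Shank directly, and to Luzp1 (0.95). Dlg4 was closest to Lrp11 (0.98), to the adenylyl cyclase Adcy2 (0.97) and to Gabbr1 (0.97), a subunit of the GABA-B receptor. None of these 9 genes passed an adjusted p of 0.05 between genotypes in edgeR. They were picked as the highest of 5986 correlations over 12 libraries, so high r values come with the selection. A link between these genes and the scaffolds was not tested.

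The neighbours of the scaffolds were read from a list of 56 tested genes in 6 roles. Of these, 46 were below 0 and 17 had an unadjusted p under 0.05 on the lower side against 0 on the higher side, with a median log2 fold change of -0.09. Over all genes tested, 48.6% were below 0, 3.67% had an unadjusted p under 0.05 on the lower side and 4.29% on the higher side. Among the 5131 genes at or above the level of the lowest scaffold gene, 54.6% were below 0, and 302 were lower and 167 higher at an unadjusted p under 0.05. Some partners, such as Nos1 (mean log2 CPM 3.78, against 5.34 for Dlgap2), lie below that level, so this background is not matched to them. No partner passed an adjusted p of 0.05 in edgeR and 1, Sipa1l1, passed in DESeq2. Sipa1l1 is also among the genes that the study called lower with DESeq2. Without wild-type replicate 5, 10 partners were on the lower side at an unadjusted p under 0.05, and without Fmr1-/y replicates 1 and 2 together, 8. This count was 12 with the non-neuronal marker score as a covariate and 13 with scaling by library totals only.

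The 3 Homer genes, whose proteins join Shank to metabotropic glutamate receptors, were all lower at an unadjusted p under 0.05, with a median of -0.21. Homer1 was at 90.5 ± 5.21 and 78.5 ± 5.22 CPM in wild-type and Fmr1-/y libraries (log2 fold change -0.21, SE 0.06, edgeR adjusted p = 0.349) and Homer3 at 24.3 ± 2.14 and 20.0 ± 2.22 CPM (log2 fold change -0.28, SE 0.09, edgeR adjusted p = 0.365). The log2 fold changes of the Shank genes, for comparison, ran from -0.28 to -0.21.

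Of the 13 partners of the Dlg proteins, 11 were below 0 and 6 had an unadjusted p under 0.05, with a median of -0.13. Sipa1l1 (SPAR), a Rap regulator that binds PSD-95 in spines, went from 379 ± 30.7 to 312 ± 15.02 CPM without overlap of the groups (log2 fold change -0.28, SE 0.06, edgeR adjusted p = 0.181, DESeq2 adjusted p = 0.00805). Groups without overlap on the lower side were found for 0.41% of all genes tested. They were found for 37 of the 5131 genes at or above the level of the lowest scaffold gene. DESeq2 called 0.571% of the genes to which it gave an adjusted p. Lrrc7, also called densin, reached 85.0% of its wild-type mean (log2 fold change -0.24, edgeR adjusted p = 0.394).

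All 12 receptors and adhesion proteins held by the scaffolds were below 0 and 6 had an unadjusted p under 0.05, with a median of -0.12. Grin2a, the NMDA receptor subunit GluN2A whose tail binds the PDZ domains of PSD-95, was at 25.8 ± 3.48 and 18.6 ± 4.73 CPM (log2 fold change -0.47, SE 0.14, edgeR adjusted p = 0.335). Kcna4, a potassium channel clustered by PSD-95, reached 87.6% of its wild-type mean (log2 fold change -0.19, edgeR adjusted p = 0.496).

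The remaining roles lay closer to 0. Of 14 other MAGUK and PDZ scaffolds, 9 were below 0 and 1, Magi2, had an unadjusted p under 0.05 (log2 fold change -0.22, edgeR adjusted p = 0.415), with a median of -0.01. Grip1, an AMPA receptor scaffold, had a log2 fold change of -0.34 (SE 0.16, edgeR adjusted p = 0.633). Of 9 partners of Shank and Dlgap proteins, 7 were below 0 with a median of -0.02, and Lphn1, an adhesion receptor that binds Shank, was the 1 with an unadjusted p under 0.05 (log2 fold change -0.13, edgeR adjusted p = 0.627). Sptan1, a spectrin that binds Shank, was on the higher side at 590 ± 108 and 820 ± 388 CPM (log2 fold change 0.48, SE 0.23, edgeR adjusted p = 0.634), with most of the spread among Fmr1-/y pools. Of 5 spine actin proteins and kinases, 4 were below 0 with a median of -0.09, and none had an unadjusted p under 0.05. Ppp1r9b (spinophilin) had a log2 fold change of -0.11 and Camk2a one of -0.09 (edgeR adjusted p = 0.694 and 0.790).

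**Figure D5:**
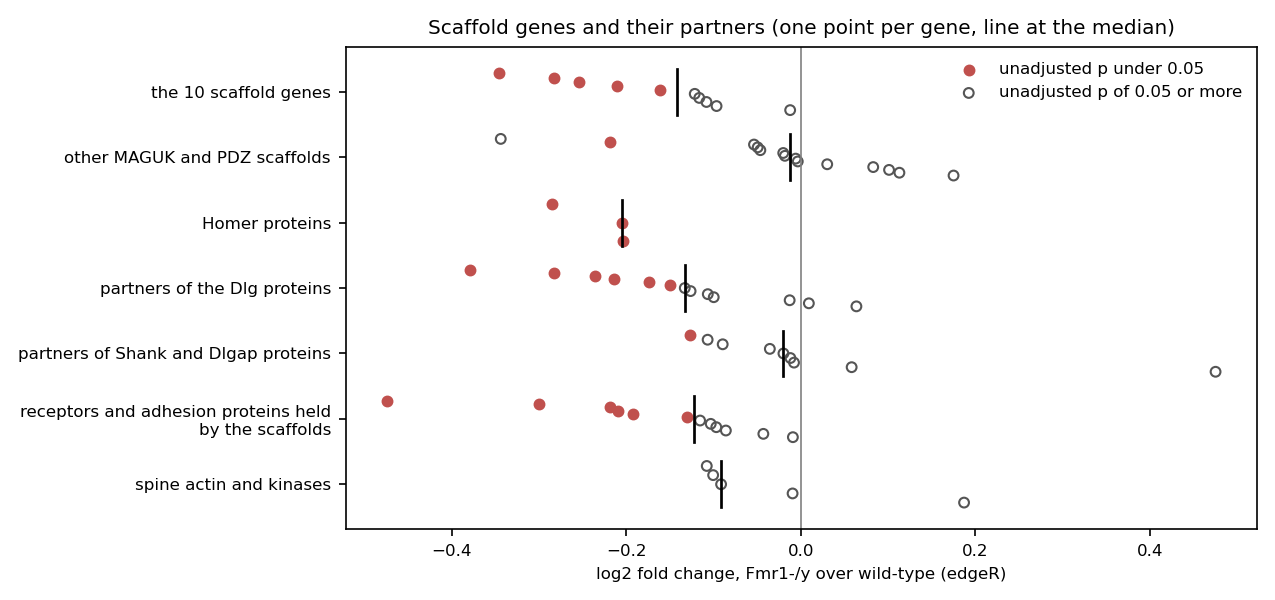
Log2 fold change (Fmr1-/y over wild-type, horizontal axis) of the 10 scaffold genes and of 56 partner genes in 6 roles, one point per gene, filled where the unadjusted p of edgeR was under 0.05, with a line at the median of each row. The medians of the scaffold genes (-0.14), Homer genes (-0.21), Dlg partners (-0.13) and receptors and adhesion proteins (-0.12) lie farther below 0 than those of other MAGUK and PDZ scaffolds (-0.01) and of Shank and Dlgap partners (-0.02). The median of spine actin proteins and kinases (-0.09) lies between.

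The 10 genes share long coding sequences, a property not used to choose them. Their coding lengths ran from 2301 bases for Dlg4 to 6501 bases for Shank1, with 5523 bases for Shank2 and 5415 bases for Shank3, where the median of the 16259 tested genes with a coding length was 1386 bases. The 4 Dlgap genes were alike at 2931 to 3180 bases. The GC content of the coding sequence was highest in Dlgap3 (64.8%), Shank3 (64.6%) and Shank1 (63.6%) and lowest in Dlg2 (46.3%). The part of length and GC content in the fold changes was not tested.

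In the gene models of GENCODE M21, the exons of these genes overlapped little with those of others. The authors counted reads on UCSC gene models, which may differ from these. All 10 genes lie on the plus strand, and the counting used strand. Exons of other genes on the same strand overlapped those of Dlg2 alone, with Gm45131 over 1.69% and Gm45159 over 0.84% of its exon bases. Each gene had at least 1554 reads in every library, the lowest count being that of Dlgap2.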

How the data were processed

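The authors prepared stranded libraries of ribosome-bound RNA and aligned the reads to the mouse genome mm10 with TopHat2 2.1.1 on Bowtie2 2.2.8. Reads per gene were counted on the opposite strand with HTSeq 0.6.1p1 in union mode, and the authors deposited these whole-number counts without normalization, for 12 libraries in 1 table. No column was left without a sample label.

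A gene entered the tests if its reads over all 12 libraries came to 15 or more, the study's own filter. In R 4.3.3, counts were scaled by TMM and tested with edgeR 4.0.16 (quasi-likelihood fit and test, 2 groups without covariates). Adjustment was by Benjamini-Hochberg over 17823 genes, with a threshold of 0.05. The script was tested on simulated counts. DESeq2 1.42.0, the tool of the study in a later version, and limma 3.58.1 voom were alternatives, as were other scalings and filters, a marker covariate, a replicate block and each library left out. Standard errors are the size of the log2 fold change over the square root of F. Family ratios were tested with a two-sided exact permutation test, adjusted over 12 pairs. P-values rest on the spread between pools. Correlations are descriptions over 12 libraries and carry no p.

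The scaffold genes, partner list, markers and tests were chosen with earlier results of these data known. Named partners are the 2 of each role with the smallest unadjusted p. Homer2 is named through its likeness to Shank1. Levels per kb use the union of exons in GENCODE M21, which may differ from the UCSC gene models on which the authors counted. RefSeq coordinates (GRCm38, the build of mm10) matched 99.8% of tested genes by Entrez identifier, and GENCODE coding lengths 91.2%. Replicate numbers are shared by the genotypes, but deviations of same-numbered libraries had a mean correlation of 0.0246 over all genes tested, from -0.0809 to 0.0899, and of 0.155 over the 5987 genes with a mean log2 CPM over 5, from -0.443 to 0.599. Pairs of both signs were found in either set of genes and no source names a shared litter, batch or day, so the numbers were not taken as pairs.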

Additional observations from a re-analysis of the deposited data

How the results depend on the processing

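DESeq2's Wald test called 84 genes in all, 1 scaffold gene (Dlgap3) and 1 partner. With any 1 library left out, edgeR called 2 to 6 genes in all and 0 scaffold genes, scaffold genes lower at an unadjusted p under 0.05 numbered 3 to 6, such partners 10 to 19, partners on the higher side 0 to 2, and ratio pairs past the adjusted threshold 0 to 4. Partners on the higher side numbered 1 with library totals only, with every gene of 1 read or more tested and with the replicate block. The replicate block left Dlgap3 at -0.35 (edgeR adjusted p = 0.115) and Shank1 at -0.28 (adjusted p = 0.239), kept the counts of all genes called (4) and of scaffold genes called (0), and could not inform the ratios, since the smallest p of an exact sign-flip test on 6 pairs, 0.03125, can pass once adjusted over 12 pairs only if most pairs reach it. Of 6 Fmr1-/y libraries, 0 correlated best with its own number over all genes and 1 over genes with a mean log2 CPM over 5. Some values near 0 changed sign. The log2 fold change of Dlg3 was 0.0116 with library totals only and ran from -0.0362 to 0.0248 over the left-out libraries. The left-out libraries also took the ratio differences of Dlgap1 to Dlgap2 from -0.0351 to 0.0622, Dlgap2 to Dlgap4 from -0.0566 to 0.0163, Dlgap1 to Dlgap4 from -0.0328 to 0.0056, Dlg2 to Dlg4 from -0.0678 to 0.12 and Shank1 to Shank3 from -0.0412 to 0.0159. Leaving out Fmr1-/y replicates 1 and 2 together, an alternative chosen after seeing the data, left 8 partners lower at an unadjusted p under 0.05 and put the differences of Dlgap1 to Dlgap2 at -0.0816, Dlgap2 to Dlgap4 at 0.0495 and Dlg2 to Dlg3 at 0.0164. The cause of these shifts was not tested. With 6 pools a group, the precision of each fold change is given by its 95% interval. These intervals are not adjusted for the number of genes and are not limits of detection.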
